A study of Homo sapiens with 6 samples.

Results

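The annexin genes encode proteins that bind membrane phospholipids when calcium rises. Of 10 listed genes, ANXA1 to ANXA8, ANXA10 and ANXA11, 9 were followed here, out of 18417 genes measured. They were chosen around the deep fall of ANXA6 in the arsenite-transformed cells, and each was read from the brightest array feature that carries its gene symbol alone. All 9 had exactly 1 such feature. ANXA8 had 0, because its 3 features are shared with the near-identical copy ANXA8L1, and no value is given for it. A feature that ANXA2 shares with SNU13 was also left aside.

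The study hybridised RNA from human prostate epithelial cells to 6 whole-transcript arrays of 1 colour. The CAsE-PE group was RWPE-1 cells kept continuously in 5 µM sodium arsenite and labelled malignant, sampled after 30, 33.5 and 35 weeks. The RWPE-1 group was untreated, immortal cells at passages 18, 38 and 42. RWPE-1 is a line from normal prostate epithelium immortalised with a human papillomavirus, so both groups carry viral oncogenes and share 1 origin, and both were grown in serum-free keratinocyte medium with pituitary extract and epidermal growth factor. The labels do not give the passage of the exposed cells, so arsenite and time in culture cannot be told apart. Within a group each array has its own passage or weeks, but the labels do not tell whether the arrays came from separate cultures. The p-values here thus reflect array-to-array spread. In the group contrast this spread holds differences of passage and weeks as well as technical variation. It may not reflect the spread between independent cultures. Array medians ran from 91.7 to 92.3 intensity units in CAsE-PE and from 93.3 to 97.2 in RWPE-1, so every CAsE-PE median was the lower. Of the array pairs 0 held identical values.

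Levels are log2(intensity + 1). Each difference is the CAsE-PE mean minus the RWPE-1 mean on that scale, and SE is the standard error of the limma fit with n = 3 arrays per group. A gene was called when its Benjamini-Hochberg adjusted p over all genes was under 0.05. Precision is limited by having 3 arrays in a group. No detection call was at hand, so a low level cannot be told from background.

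Each annexin carries a conserved core that holds the calcium and lipid sites, and a variable N-terminal head that decides its partners. ANXA1 and ANXA2 bind S100 proteins through short heads, while ANXA7 and ANXA11 have long heads that meet penta-EF-hand calcium sensors. ANXA6 is the exception in the core: it carries a second annexin core joined by a linker, and it brings signalling proteins and cholesterol-rich membrane together. In epithelium the family is known for membrane repair, vesicle traffic, control of phospholipase A2 and of clotting at the cell surface.

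Promoters of the members were read from RefSeq (GRCh38.p14), as 250 bases before to 50 after each annotated gene start. Of the 10 listed genes 9 matched, with 13 promoters, since ANXA4, ANXA6 and ANXA11 have more than 1. The following 4 are shown because ANXA6 and ANXA11 had the most negative differences and ANXA1 the smallest. CG dinucleotides, the sites of DNA methylation, are in capitals, and all run 5′ to 3′ on the minus strand except ANXA1, on the plus strand.
ANXA6 upstream promoter, chr5:151157730-151158029: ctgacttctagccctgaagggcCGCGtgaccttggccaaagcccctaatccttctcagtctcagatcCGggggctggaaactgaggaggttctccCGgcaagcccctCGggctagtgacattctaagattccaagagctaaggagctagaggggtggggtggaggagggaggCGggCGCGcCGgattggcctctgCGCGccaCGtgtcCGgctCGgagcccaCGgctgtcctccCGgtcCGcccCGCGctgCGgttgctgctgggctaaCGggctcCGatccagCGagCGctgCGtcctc
ANXA6 inner promoter, chr5:151141635-151141934: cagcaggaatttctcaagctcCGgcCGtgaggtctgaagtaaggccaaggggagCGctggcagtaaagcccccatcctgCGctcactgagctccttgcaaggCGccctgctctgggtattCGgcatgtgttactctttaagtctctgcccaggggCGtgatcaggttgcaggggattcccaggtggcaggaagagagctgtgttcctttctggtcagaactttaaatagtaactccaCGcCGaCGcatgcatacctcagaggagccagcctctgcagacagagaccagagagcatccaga
ANXA11 promoter, chr10:80205488-80205787: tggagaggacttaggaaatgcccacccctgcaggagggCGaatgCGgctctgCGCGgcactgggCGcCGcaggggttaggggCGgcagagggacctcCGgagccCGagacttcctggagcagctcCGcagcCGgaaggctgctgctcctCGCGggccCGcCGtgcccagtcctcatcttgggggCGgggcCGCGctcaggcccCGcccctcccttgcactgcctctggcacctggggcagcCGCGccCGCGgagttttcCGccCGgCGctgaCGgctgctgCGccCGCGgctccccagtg
ANXA1 promoter, chr9:73151615-73151914: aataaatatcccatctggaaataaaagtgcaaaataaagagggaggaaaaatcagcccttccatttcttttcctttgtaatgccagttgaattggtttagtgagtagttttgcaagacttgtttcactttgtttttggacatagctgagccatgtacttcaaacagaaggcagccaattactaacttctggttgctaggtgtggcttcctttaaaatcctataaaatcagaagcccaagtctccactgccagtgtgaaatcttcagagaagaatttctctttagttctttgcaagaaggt

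The upstream ANXA6 promoter held 25 CG dinucleotides and the inner one 10, and the ANXA11 promoter shown held 30. ANXA1 and ANXA10 each held 0. Over 35116 promoters of the same length, 69.9% had at most 25 and 45.3% at most 10, the median was 14, and 96% held at least 1. The other ANXA11 promoters held 7 and 12, those of ANXA4 44 and 27, and those of ANXA5, ANXA2, ANXA3 and ANXA7 held 36, 32, 25 and 23. Members without a CG included ANXA10, with a difference of −0.41, and ANXA1, with 0.02, and the CG-rich ones included ANXA4 (−0.62) and ANXA5 (0.19).

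Further motifs were searched on both strands, counting overlapping matches. The GC box GGGCGG was in 1 of the ANXA6 promoters, the upstream one, once and on the strand opposite to the one printed. It was also in the promoters of ANXA2, ANXA4, ANXA5, ANXA7 and the ANXA11 promoter shown, against 45% of all promoters. TATAAA was in those of ANXA1, ANXA2 and ANXA10 and in the ANXA11 promoter with 12 CG dinucleotides, against 11.5% of all. The AP-1 type motif TGANTCA was in the ANXA2 promoter (7.71% of all), and the antioxidant type motif TGACNNNGC in that of ANXA7 (13.3% of all). These matches describe the letters in the window and show no binding.

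ANXA6 was far lower in the transformed cells. Its level was 7.65, 7.42 and 7.36 in CAsE-PE at 30, 33.5 and 35 weeks, against 10.49, 10.87 and 10.45 in RWPE-1 at passages 18, 38 and 42. Every CAsE-PE array lay below every RWPE-1 array, with a gap many times the spread inside either group. The means were 7.47 ± 0.15 in CAsE-PE and 10.60 ± 0.23 in RWPE-1 (SD, n = 3 each), a difference of −3.13 (SE 0.14), or 8.76-fold, the 10th deepest fall of all genes. This is the value the set was built around, so it is a description and carries no test, and the same holds for every member in this contrast. In RNA from a whole culture, fewer cells with the transcript and less transcript per cell cannot be told apart.

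**Figure D1:**
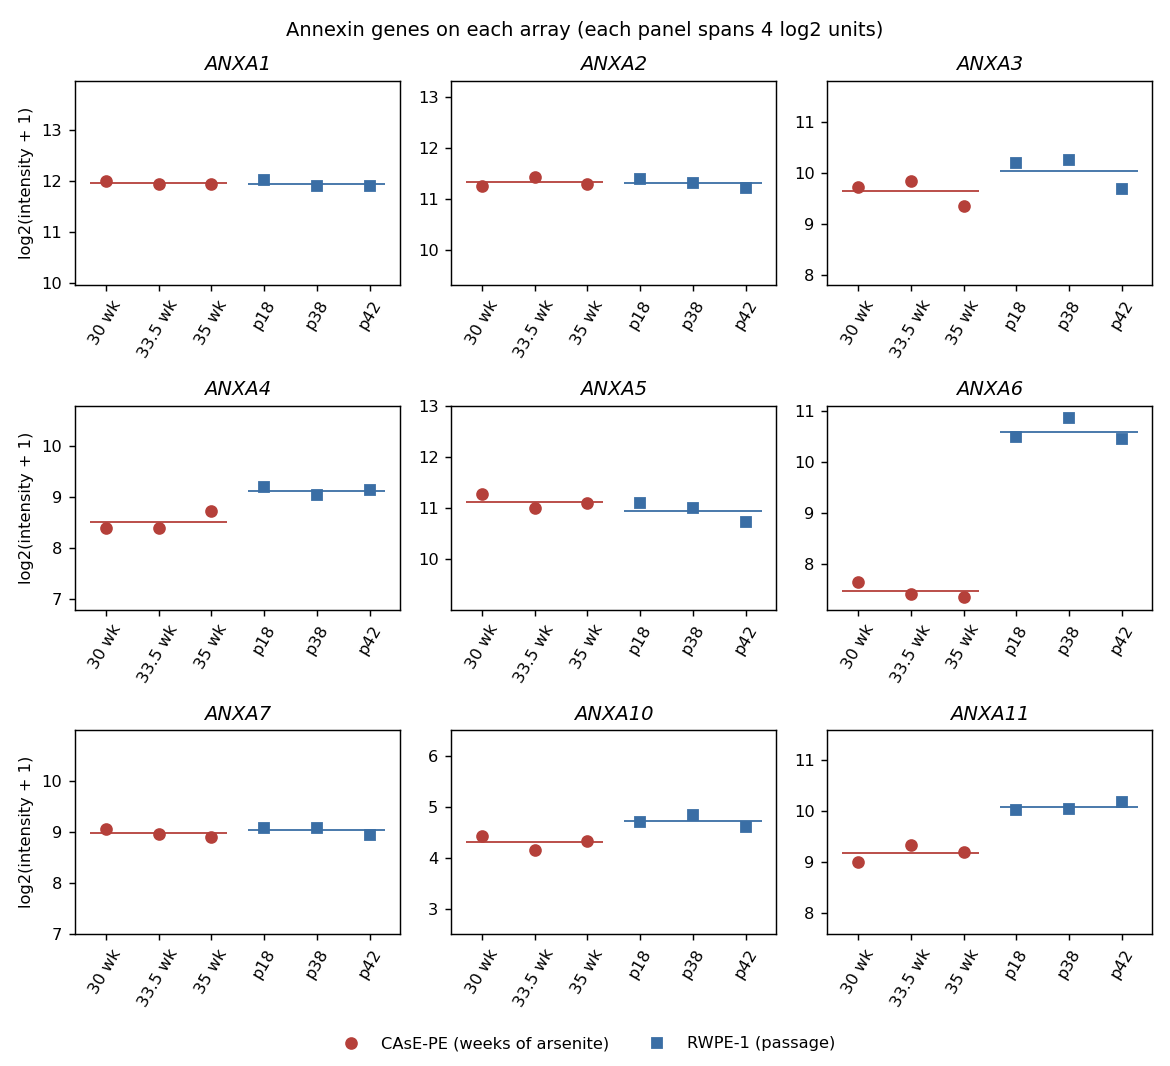
Levels of the 9 annexin genes on each array, as log2(intensity + 1), with CAsE-PE arrays as red circles by weeks of arsenite and RWPE-1 arrays as blue squares by passage. Lines mark group means, each panel spans 4 log2 units, and the ANXA6 points fall into 2 separate levels near 7.47 in CAsE-PE and 10.60 in RWPE-1.

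ANXA11, which tethers RNA granules to lysosomes and binds the calcium sensor PDCD6, was the next lowest. It stood at 8.99, 9.34 and 9.20 in CAsE-PE, against 10.01, 10.04 and 10.17 in RWPE-1. The groups did not overlap, and the means of 9.18 ± 0.18 in CAsE-PE and 10.07 ± 0.08 in RWPE-1 (SD, n = 3 each) differed by −0.90 (SE 0.12). ANXA7, or synexin, the other long-headed member and a promoter of secretory vesicle fusion, stood at 9.07, 8.97 and 8.90 in CAsE-PE, against 9.09, 9.09 and 8.95 in RWPE-1. The 2 groups of ANXA7 overlapped, with a difference of −0.06 (SE 0.10). Both genes lie on chromosome 10.

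ANXA4, an annexin of apical membranes and vesicles in epithelial cells, had 8.39, 8.39 and 8.73 in CAsE-PE, against 9.20, 9.04 and 9.15 in RWPE-1. The groups were apart, with the 35-week array nearest to RWPE-1, and the difference was −0.62 (SE 0.12). ANXA3, which inhibits clotting and phospholipase A2 in vitro, had 9.73, 9.84 and 9.35 in CAsE-PE, against 10.19, 10.24 and 9.69 in RWPE-1. The passage 42 array of ANXA3 lay among the CAsE-PE values, so the groups overlapped (difference −0.40, SE 0.18). Without the passage 42 array the difference was −0.58 and ANXA3 was called.

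ANXA5 binds exposed phosphatidylserine, shields it from clotting factors and is the common stain for dying cells. Its values were 11.28, 10.997 and 11.10 in CAsE-PE, against 11.09, 10.99 and 10.73 in RWPE-1. The groups overlapped, and the difference of 0.19 (SE 0.13) was the highest of the 9 members.

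ANXA1, a mediator of glucocorticoid action that restrains phospholipase A2 and signals through formyl peptide receptors, and ANXA2, which forms a complex with S100A10, differed least. ANXA1 measured 11.99, 11.94 and 11.94 in CAsE-PE, against 12.02, 11.90 and 11.90 in RWPE-1. ANXA2 measured 11.25, 11.42 and 11.30 in CAsE-PE, against 11.39, 11.32 and 11.20 in RWPE-1. Their differences were both 0.02, with SEs of 0.09 and 0.10, and the groups overlapped in each. ANXA2 has processed pseudogenes of similar sequence, so its value may hold signal from them. Features named for these pseudogenes differed by −0.10 (ANXA2P1), 0.17 (ANXA2P2) and −0.20 (ANXA2P3), and 0 of the 3 was called.

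ANXA10, an annexin of gastric epithelium that lacks most calcium sites of the core, was dim on all arrays. It had 4.42, 4.15 and 4.33 in CAsE-PE, against 4.70, 4.85 and 4.60 in RWPE-1, without overlap and with a difference of −0.41 (SE 0.12). Its mean level was at percentile 6.37 of all genes, where signal and background are not separable. Its call was lost without the array of passage 18 (difference −0.42), passage 38 (−0.35), 33.5 weeks (−0.34) or 35 weeks (−0.43), and under quantile normalisation, array-median centring and a pseudocount of 16, where the difference was −0.25.

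Counted together, 4 of the 9 members were called lower (ANXA4, ANXA6, ANXA10 and ANXA11) and 0 higher, while of all genes 8.71% were called lower and 9.04% higher. The same 4 were the members whose groups did not overlap, all with CAsE-PE lower, where 22.8% of all genes did so in that direction, 16.1% in the other and 38.9% in either. The contrast is the one the set was chosen on, so nothing is read from these counts. The median difference of the 9 was −0.40, or −0.23 without ANXA6, beside −0.06 for all genes, and 6 of the 9 were below 0. At an unadjusted p under 0.05, 5 members were lower and 0 higher. That count comes from the same contrast and has no share of all genes beside it, so nothing is read from it either. The other unadjusted counts between the groups given below also lack that share, and nothing is read from them. Outside the set, 0 of 6 other annexin-related genes was called in limma (0 at an unadjusted p under 0.05), among them ANXA9 (0.21, SE 0.10, called with array weights), ANXA13 (0.06, SE 0.10) and ANXA2R, a receptor gene for ANXA2 (−0.03, SE 0.11).

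**Figure D2:**
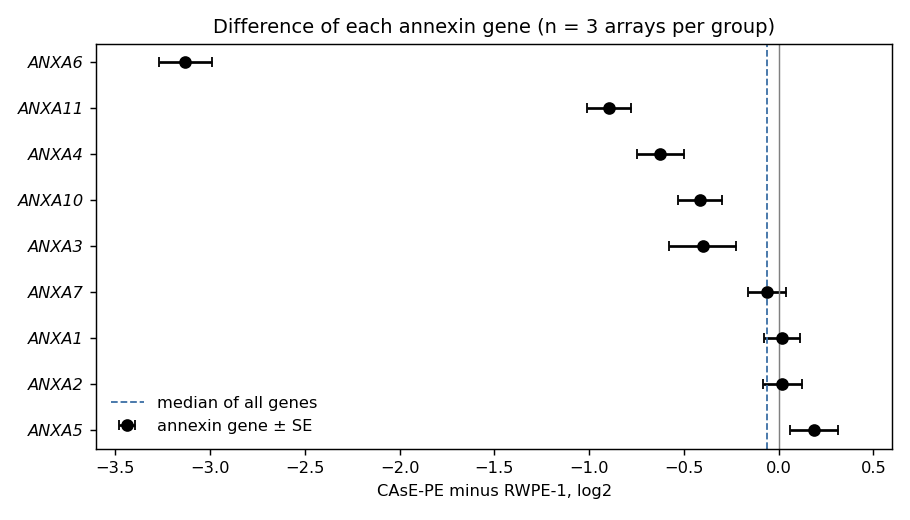
Difference between CAsE-PE and RWPE-1 for each annexin gene on the log2 scale, with the SE of the limma fit (n = 3 arrays per group), and the median of all genes as a dashed line. ANXA6 stands alone at −3.13, and the other members lie between −0.90 and 0.19.

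Change along the cultures was a question the choice of genes did not use. A limma model over all genes held the group, the passage of the RWPE-1 arrays and the weeks of the CAsE-PE arrays, which leaves 2 residual degrees of freedom. For passage, 0 of the 9 members was called, where 0.0217% of all genes were (4 genes). At an unadjusted p under 0.05 there were 0 members, beside 1072 of 18417 genes. Slopes per 10 passages lay between −0.13 (ANXA3, SE 0.11, limma adjusted p = 0.880) and 0.05 (ANXA6, SE 0.09, adjusted p = 0.941). For weeks, 0 members were called either, beside 0.25% of all genes (46 genes). At an unadjusted p under 0.05 there were again 0 members, beside 2072 of 18417 genes. With 9 members and such shares of all genes, stability is not read from these counts of 0. Slopes per week lay between −0.06 (ANXA6, SE 0.04, limma adjusted p = 0.730) and 0.06 (ANXA4, SE 0.04, adjusted p = 0.691). ANXA6 was highest at 30 weeks and lowest at 35 weeks among the CAsE-PE arrays, a range of 0.29 log2 units beside the 3.13 between groups. With 3 arrays on each slope a modest drift could not be seen.

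The 5 measured genes on either side of ANXA6 on chromosome 5 were examined next, since position was no part of the choice. Of these 10 neighbours, 5 were called lower and 0 higher, beside 8.71% and 9.04% of all genes, and their median difference was −0.36. ZNF300, a C2H2 zinc finger gene, had 6.65, 5.97 and 6.23 in CAsE-PE, against 8.43, 8.52 and 8.44 in RWPE-1, and fell by 2.18 (SE 0.16, limma adjusted p = 4.35e-05). GPX3, the secreted glutathione peroxidase, had 7.53, 7.91 and 7.72 in CAsE-PE, against 9.71, 9.49 and 9.46 in RWPE-1, and fell by 1.83 (SE 0.13, adjusted p = 3.13e-05). In neither gene did the groups overlap.

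GM2A, the lysosomal activator of ganglioside breakdown, fell by 0.87 (SE 0.12, limma adjusted p = 0.00124), SMIM3 fell by 0.61 (SE 0.14, adjusted p = 0.0147) and CCDC69 fell by 0.36 (SE 0.10, adjusted p = 0.0335). The CCDC69 call was lost whichever array was dropped (adjusted p up to 0.12, without passage 38) and that of SMIM3 without the 35-week array (adjusted p = 0.0618), when 3 neighbours were lower. TNIP1, the gene next to ANXA6 and an inhibitor of NF-kappaB signalling, differed by 0.14 (SE 0.14, adjusted p = 0.521). The amino acid transporter genes SLC36A3 (−0.36), SLC36A2 (−0.23) and SLC36A1 (0.03) and the pseudogene ZNF300P1 (−0.27) did not pass either.

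The fall was therefore uneven among the brighter genes of the stretch, with TNIP1 between GPX3 and ANXA6. The dim genes do not bear on this. A wider stretch of 10 genes on either side, chosen after the data were seen, had 9 of 20 lower and 0 higher. It took in SPARC, a secreted matrix protein and the seventh measured gene past ANXA6, at 7.13, 6.85 and 6.79 in CAsE-PE, against 10.90, 10.77 and 10.68 in RWPE-1. The other calls there were NDST1 (−0.49), SYNPO (−0.71) and FAT2 (−0.75), of which NDST1 was lost in 4 and FAT2 in 5 of 6 fits on 5 arrays (adjusted p up to 0.106 without passage 18 and 0.101 without 33.5 weeks). The 10 neighbours of each other member were counted in the same way, also after the data were seen. Around ANXA3, 3 were lower and 0 higher, with a median of −0.22, and around ANXA7 2 were lower and 1 higher (−0.25). Around ANXA2, 0 were lower and 4 higher (0.29), and around ANXA10 2 were lower and 4 higher (0.02). Around ANXA1, 1 was lower and 2 higher (0.02), around ANXA4 1 was lower and 1 higher (0.04), around ANXA5 1 was lower and 0 higher (−0.03), and around ANXA11 0 were called (−0.15). With the neighbour median taken off, the differences were −2.77 for ANXA6, −0.75 for ANXA11, −0.66 for ANXA4 and −0.44 for ANXA10. They were −0.27 for ANXA2, −0.18 for ANXA3, 0.0006 for ANXA1, 0.19 for ANXA7 and 0.22 for ANXA5. A regional cause was not tested.

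**Figure D3:**
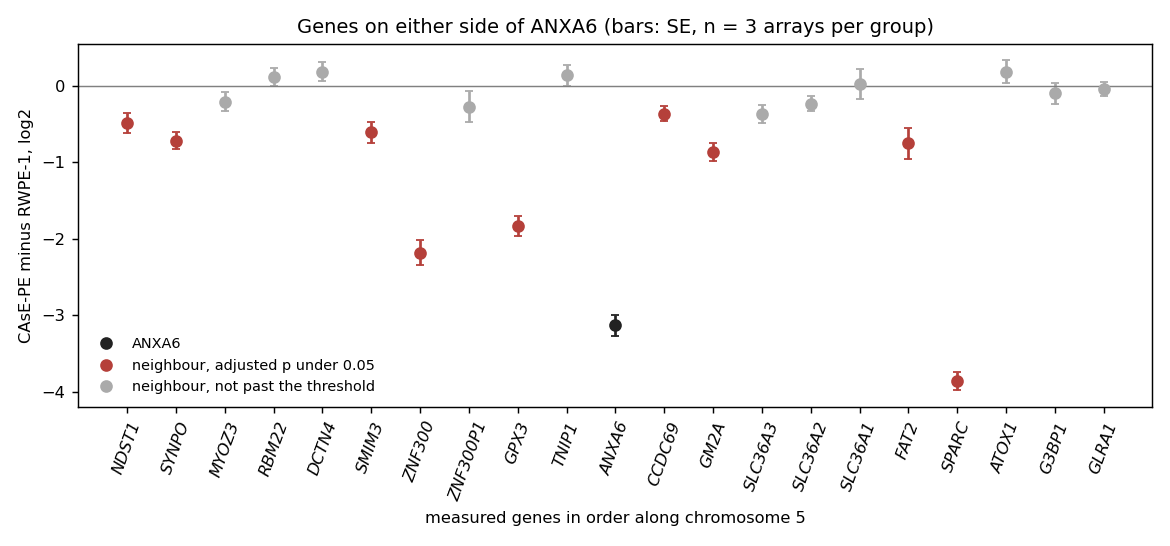
Difference between CAsE-PE and RWPE-1 (log2, with SE, n = 3 arrays per group) for the 10 measured genes on either side of ANXA6 in order along chromosome 5. Called neighbours, in red, lie among genes that were not called, in grey, from −0.36 (SLC36A3) to 0.19 (ATOX1), and SPARC at −3.86 is the only gene of the stretch below ANXA6 at −3.13.

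The genes whose profile over the 6 arrays was most like that of ANXA6 lay on other chromosomes. Likeness was the root mean square difference of levels taken relative to each gene's RWPE-1 mean, over 18416 genes. The nearest were the zinc finger gene ZNF560 (0.13 log2 units), the zinc finger pseudogene ZNF542P (0.14), both on chromosome 19, and FAR2, a fatty acyl-CoA reductase gene on chromosome 12 (0.16). FAR2 had 4.99, 5.01 and 4.64 in CAsE-PE, against 7.70, 8.15 and 7.66 in RWPE-1, with passage 38 highest as for ANXA6. The measure is set largely by the difference between the groups, on which ANXA6 was chosen, and the CAsE-PE levels of all 3 genes were low enough that background cannot be separated, so this is a description only.

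Genes that work with annexins were then read from 7 lists of known partners and settings. Of 60 genes listed, 50 had a feature of their own, and 9 of these were called lower, 4 higher and 37 not, with a median of −0.09 beside −0.06 for all genes. As shares, 8.71% of all genes were called lower and 9.04% higher. The deepest fall was in PLA2G4A, cytosolic phospholipase A2, which frees arachidonic acid from membranes and is restrained by annexins. It had 4.02, 4.18 and 4.43 in CAsE-PE, against 6.51, 6.98 and 6.52 in RWPE-1, and fell by 2.46 (SE 0.16, limma adjusted p = 2.13e-05). The groups lay far apart, with the CAsE-PE values at a level where background cannot be separated.

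Of 7 genes for S100 proteins, several of which bind annexin heads, 0 were called in either direction by limma (0 at an unadjusted p under 0.05). No share of all genes stands beside the unadjusted count. S100A1, S100A12 and S100B were dim, at percentiles 19.5, 11.8 and 13.4 of mean level, where background cannot be separated. S100A10, the partner of ANXA2, had 12.56, 12.54 and 12.58 in CAsE-PE, against 12.64, 12.53 and 12.48 in RWPE-1. S100A11, the partner of ANXA1, differed by −0.21 (SE 0.10, adjusted p = 0.184), and S100A6, a partner of ANXA11, by 0.17 (SE 0.11, adjusted p = 0.344). For S100A10 and S100A6 the arrays of both groups overlapped, and for S100A11 those of CAsE-PE lay just below.

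Penta-EF-hand proteins and calpains held 4 falls and 1 rise among 6. The catalytic calpain gene CAPN2 fell by 0.66 (SE 0.12, limma adjusted p = 0.00651), and CAPNS1, the small subunit shared by the classical calpains, fell by 0.57 (SE 0.10, adjusted p = 0.0038). CAPN1 fell by 0.36 and SRI, or sorcin, a partner of ANXA7 and ANXA11, fell by 0.51 (SE 0.12, adjusted p = 0.0176). These 2 are named after their values were seen, and each call depended on single arrays: that of CAPN1 was lost whichever array was dropped (adjusted p up to 0.131, without passage 38) and that of SRI without passage 18 or passage 38 (up to 0.0744). GCA, or grancalcin, went the other way, with 7.35, 6.92 and 7.22 in CAsE-PE, against 6.26, 6.64 and 6.52 in RWPE-1 (0.69, SE 0.14, adjusted p = 0.0106).

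Of 14 membrane repair and ESCRT-III genes, 2 fell and 0 rose. The caveolar ATPase gene EHD2 fell by 0.46 (SE 0.10, limma adjusted p = 0.0101) and the caveolar coat gene CAVIN1 fell by 0.68 (SE 0.19, adjusted p = 0.0344), a call kept in 1 of 6 fits on 5 arrays (adjusted p up to 0.122, without passage 38). At an unadjusted p under 0.05, 3 of the 14 were lower and 3 higher, a count with no share of all genes beside it. Among those not called, VPS4A stood at 0.33 (SE 0.11), AHNAK at 0.30 (SE 0.10) and TSG101 at 0.27 (SE 0.11), and the ferlin genes MYOF at −0.14 (SE 0.09) and DYSF at −0.21 (SE 0.12). AHNAK was called with a pseudocount of 16, and AHNAK and VPS4A with array weights.

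Plasminogen activation on the cell surface, where the ANXA2 complex acts as a receptor, had 1 rise and 1 fall among 5. PLAT, tissue plasminogen activator, had 9.85, 8.61 and 8.97 in CAsE-PE, against 8.09, 8.15 and 7.42 in RWPE-1, and rose by 1.26 (SE 0.30, limma adjusted p = 0.0203). Without the passage 42 array it was not called (adjusted p = 0.0698). PLAU, urokinase, had 7.96, 7.69 and 7.62 in CAsE-PE, against 8.44, 8.54 and 8.36 in RWPE-1, and fell by 0.69 (SE 0.12, adjusted p = 0.00432).

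Genes that set or read phosphatidylserine exposure, the signal that ANXA5 binds, had 2 rises and 1 fall among 6. The scramblase gene ANO6 rose by 0.62 (SE 0.13, limma adjusted p = 0.0116), a call lost without passage 38 (adjusted p = 0.0579) or 35 weeks. MFGE8, a secreted bridge to phosphatidylserine, rose by 0.54 (SE 0.10, adjusted p = 0.00704). ATP11A, a flippase that returns the lipid to the inner leaflet, fell by 0.63 (SE 0.10, adjusted p = 0.00369). Of the 6 measured ANXA6 signalling and cholesterol partners 0 were called by limma (2 at an unadjusted p under 0.05, without a share of all genes). The protein kinase C alpha gene PRKCA differed by 0.45 (SE 0.14, adjusted p = 0.0531), and was called without passage 42 (adjusted p = 0.043), without 30 weeks (0.0173), with array-median centring, with array weights and without the dimmest genes. EGFR, whose signalling ANXA6 dampens, differed by −0.14 (SE 0.10, adjusted p = 0.374).

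**Figure D4:**
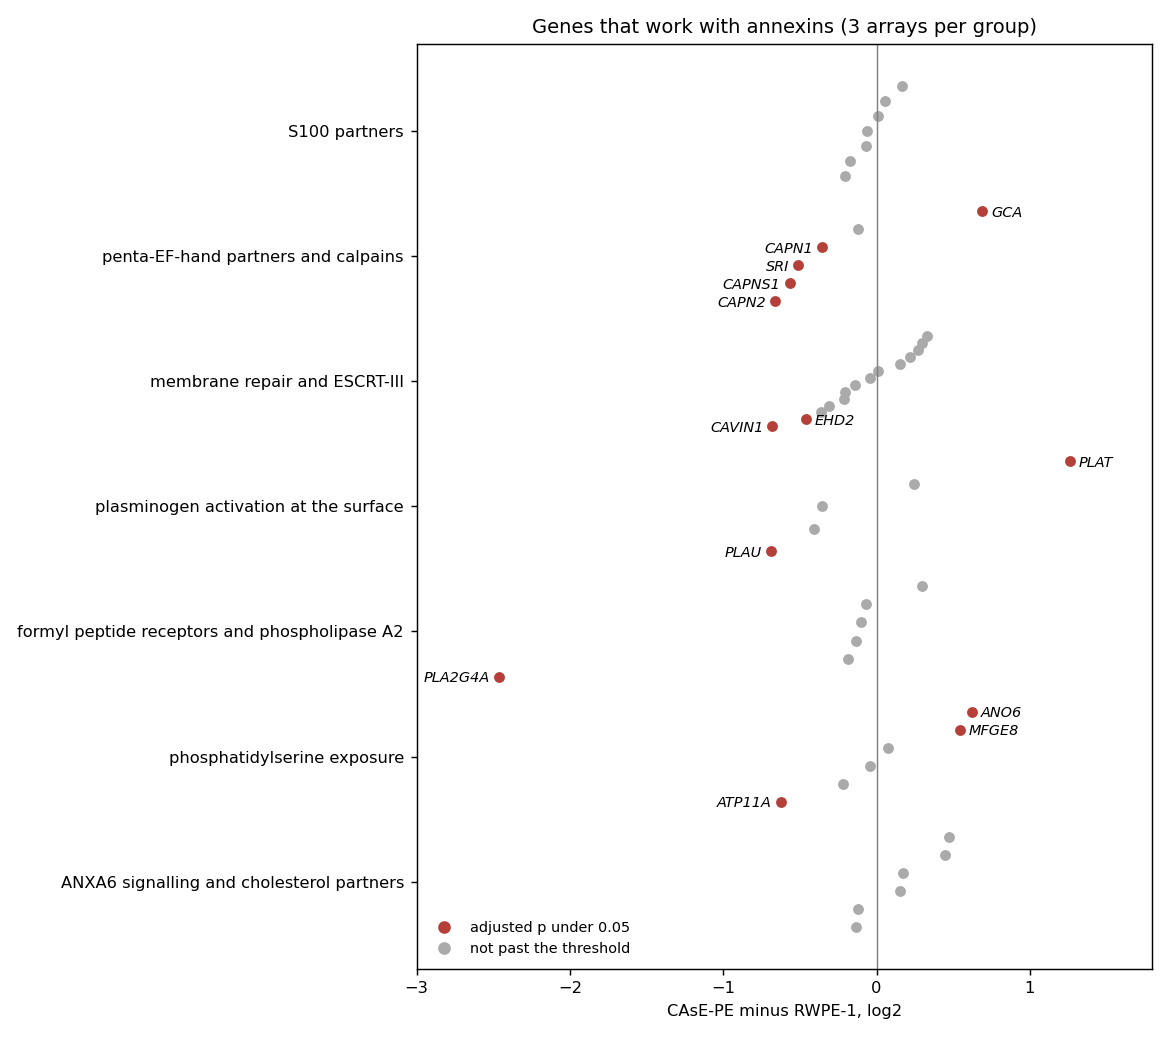
Difference between CAsE-PE and RWPE-1 (log2) for each measured gene of the 7 partner lists, with called genes in red and named (3 arrays per group). PLA2G4A stands apart at −2.46, and the S100 partners, among them the dim S100A1, S100A12 and S100B, cluster around 0.

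The epithelial keratins KRT5, KRT8 and KRT18 were bright in both groups. KRT15 was dimmer, with means of 6.38 in CAsE-PE and 8.15 in RWPE-1, and KRT14 had means of 9.33 and 10.93. KRT5 ran from 11.80 to 12.07 in CAsE-PE and from 11.999 to 12.10 in RWPE-1, and KRT5 was not called. Of 5 measured basal markers KRT14 (−1.60) and KRT15 (−1.77) fell and 0 rose, with ITGB4 at 0.16 and DST at 0.19, neither called. Of 5 measured luminal or simple epithelial markers CDH1 was called higher (0.39, limma adjusted p = 0.0186) and 0 were called lower. KRT8 (0.09), KRT18 (0.04), EPCAM (−0.21) and KLK3 (−0.25) were not called. Among uncalled markers, every CAsE-PE array lay below every RWPE-1 array for KLK3, the stromal COL3A1 and the leukocyte ITGAM. For ITGB4 and DST every CAsE-PE array lay above. Of all genes 22.8% lay apart with CAsE-PE lower and 16.1% with CAsE-PE higher. The CDH1 call was lost without passage 18, passage 38 or 35 weeks (adjusted p up to 0.0811). The mean level of 7 stromal markers was 5.81 to 5.96 in CAsE-PE and 5.86 to 5.94 in RWPE-1, with 1 called, PDGFRB (−0.32, lost whichever array was dropped, adjusted p up to 0.156). That of 5 leukocyte markers was 5.88 to 6.13 in CAsE-PE and 6.32 to 6.41 in RWPE-1. Of these CD14 (−0.43) and the lysosomal gene CD68 (−0.89) fell, while the defining marker PTPRC was at 3.73 to 3.86 in CAsE-PE and 3.84 to 3.99 in RWPE-1. CD14 was lost without the array of passage 18, passage 38 or 35 weeks (adjusted p up to 0.0989). KRT14, KRT15, CD14 and CD68 were lower in CAsE-PE, as ANXA6 was, while KRT5, PTPRC, CD3E and ITGAM were not called. The part of these markers in the annexin values was not tested.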

How the data were processed

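Per the labels' protocols, Trizol and a Qiagen column kit yielded the total RNA and an Ambion kit the labelled target. The authors deposited 1 linear intensity per feature and array, for 33252 features on 6 arrays. How these intensities were background-corrected, summarised and normalised is not given in the sources used here.

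In GEO's platform annotation 19460 features carried 1 gene symbol and 1754 carried several, while 12038 were not listed. Of those with 1 symbol, 19429 matched RefSeq (GRCh38.p14) by Entrez identifier, and 0 symbols changed. The feature with the highest mean represented each of 18417 genes. The table proved linear, so log2(value + 1) was used, which understates changes of dim genes. The group contrast was fitted by lmFit and eBayes of limma 3.58.1 (R 4.3.3), two-sided and with 4 residual degrees of freedom, and the slopes on passage and weeks in another model. Adjusted p-values come from these fits. Steps were tested on simulated data. Python 3.11.15 and pandas 2.3.3 made the tables.

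The members, lists and tests were chosen with earlier results of these data known. Named genes were the members, S100A10, S100A11 and S100A6, up to 2 called rises and 2 called falls per partner list, other annexin family features, 5 neighbours on either side of ANXA6 and the 3 nearest profiles. Partner genes named without a call, other than the S100 genes, were chosen after their values were seen. Alternatives were quantile normalisation, array-median centring, a pseudocount of 16, leaving out the dimmest genes (12278 kept), the mean over features, a mean-variance trend, array weights and each array left out in turn. ANXA8 and 10 of 60 partner genes had no feature of their own and were not analysed here.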

Additional observations from a re-analysis of the deposited data

How the results depend on the processing

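Between 3 and 5 annexin genes were called lower under the alternatives tried, and 0 were called higher under any of them. ANXA4, ANXA6 and ANXA11 were called under all 13, with differences of −0.74 to −0.54, −3.32 to −2.9998 and −0.98 to −0.80. The differences of ANXA1 and ANXA2 changed sign between settings, each from −0.03 to 0.06. ANXA10 was called under 5 of the 12 that kept it, and ANXA3 under 2 of 13 (array weights and without passage 42). With 1 array left out, 6 to 9 partner genes were lower and 3 to 5 higher, and of 13 called partner genes 8 were called in each of the 6 such fits. Array weights gave 8 partner genes higher in place of 4 and 12 lower in place of 9. They also gave 6 ANXA6 neighbours lower in place of 5, and 5342 called genes in all in place of 3269. Without passage 38 all called genes numbered 1888, and without 35 weeks 2094. Of the ANXA6 neighbours 3 to 5 were lower with 1 array left out (3 without the 35-week array), and 9 of 20 were lower with 10 genes on either side, a width chosen after seeing the data. Counts of 0 for passage and weeks were 0 under all 6 alternatives run. The cause of these shifts was not tested. Quantile normalisation moved the median difference of all genes to −0.01, against −0.06 as deposited. The dim level of ANXA10 and of PLA2G4A in CAsE-PE limits what can be read from them. No paired analysis was made, because the labels do not match the passages of the RWPE-1 arrays to the weeks of the CAsE-PE arrays.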
